A study of Mus musculus with 16 samples.

Results

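The Serpina1 genes of the mouse encode alpha-1-antitrypsin, and 5 of them, Serpina1a to Serpina1e, are described here across 4 cell populations sorted from the femur. They were taken by symbol, 5 of the 22559 genes in the table of expression values. Serpina1b and Serpina1d were picked out because earlier results of these libraries placed them among the strongest differences of PSC from PP1 and PP2, and the other paralogs came with them. The members' levels are therefore given as a description, without a test.

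Every library came from CTSK-cre+ mTMG mice of the C57/B6 strain at postnatal day 6, in which a Cre recombinase under control of the Ctsk (cathepsin K) gene switches a membrane reporter from Tomato to green fluorescence. The groups were periosteal stem cells (PSC), periosteal progenitor cells of type 1 (PP1) and of type 2 (PP2), and endosteal mesenchymal stem cells negative for the Ctsk-driven reporter (MSC), with 4 libraries each and 16 in all. All came from femurs of 1 litter taken on 1 day and were not pooled. Whether each library of a group stands for its own animal is not said, and p-values here reflect library-to-library spread, which may be technical. Libraries held 22306403 to 48356249 reads, and each MSC library had at least 39450851. Of 13797 genes tested, 31.2% passed for PSC against PP1, 32.8% against PP2 and 26.3% against MSC. For MSC the shares were 21.4% against PP1 and 24% against PP2, and PP1 and PP2 differed in 0.834%.

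Alpha-1-antitrypsin is a secreted serpin, an inhibitor that traps serine proteases by offering them an exposed loop as bait. Its best known target is neutrophil elastase, its main source is the hepatocyte, and in people its loss leads to lung disease while a misfolding form harms the liver. Humans carry a single gene, whereas mice carry a cluster of close copies, whose bait loops are the part of the protein that differs most between copies.

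The 5 genes lie on the minus strand of chromosome 12 within 231 kb in GENCODE M21 (GRCm38, the build that the files' mm10 names). Serpina1b spans chr12:103728156-103830373, Serpina1d chr12:103763594-103773592, Serpina1a chr12:103853589-103863562, Serpina1c chr12:103894926-103904887 and Serpina1e chr12:103946931-103958975. The long span of Serpina1b, 102218 bases, comes from an annotated transcript that reaches over Serpina1d. The principal transcript of each gene has 5 exons, of which 4 are coding, and a coding sequence of 1239 bases. Any pair of coding sequences was between 96.3% and 98.5% identical, with Serpina1a and Serpina1c the closest pair. Of the 1239 coding positions, 86 (6.94%) differed among the 5 genes, and the 60 bases from coding position 1102 to 1161 held 18 of them, against a median of 4 in windows of this length and at most 13 in any window apart from it. This stretch codes for the bait loop, and it is shown because it is where reads can best tell the copies apart. Capitals mark bases that differ from the commonest base at that position among the 5 genes. At a tie, the base of the gene first in alphabetical order counts as the common one.
Serpina1a (chr12:103853756-103853815, minus strand, GRCm38): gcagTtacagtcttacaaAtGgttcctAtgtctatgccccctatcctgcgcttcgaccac
Serpina1b (chr12:103728323-103728382, minus strand, GRCm38): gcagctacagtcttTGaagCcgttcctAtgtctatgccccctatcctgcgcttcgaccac
Serpina1c (chr12:103895093-103895152, minus strand, GRCm38): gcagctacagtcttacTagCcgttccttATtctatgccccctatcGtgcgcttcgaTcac
Serpina1d (chr12:103763761-103763820, minus strand, GRCm38): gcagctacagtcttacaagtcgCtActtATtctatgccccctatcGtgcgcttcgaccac
Serpina1e (chr12:103947099-103947158, minus strand, GRCm38): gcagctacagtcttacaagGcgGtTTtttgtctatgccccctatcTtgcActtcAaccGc

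The promoters were alike too, with a range of identity that reached lower than that of the coding sequences. The 250 bases before and 50 after each gene start in RefSeq (GRCm38.p6) were compared, and all 5 genes had an entry. Pairs were between 91.7% and 98.4% identical over their aligned bases, against 96.3% to 98.5% for the coding sequences. Pairs with Serpina1e aligned over fewer bases than the other pairs. Whether promoter differences bear on the genes' levels was not tested. A stretch of 68 bases upstream of the starts is shown, in the same alignment columns for each gene. In it, capitals mark the letters TGTTTGC, a form bound by FOXA factors, and TGTGGT, the core of RUNX sites.
Serpina1a (chr12:103863625-103863692, minus strand, GRCm38.p6): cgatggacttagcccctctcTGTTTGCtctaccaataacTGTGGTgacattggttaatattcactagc
Serpina1b (chr12:103738200-103738267, minus strand, GRCm38.p6): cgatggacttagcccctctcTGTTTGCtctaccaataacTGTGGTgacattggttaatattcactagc
Serpina1c (chr12:103904962-103905029, minus strand, GRCm38.p6): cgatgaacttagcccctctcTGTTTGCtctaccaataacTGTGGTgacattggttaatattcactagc
Serpina1d (chr12:103773634-103773701, minus strand, GRCm38.p6): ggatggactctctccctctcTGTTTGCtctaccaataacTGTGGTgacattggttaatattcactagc
Serpina1e (chr12:103956960-103957027, minus strand, GRCm38.p6): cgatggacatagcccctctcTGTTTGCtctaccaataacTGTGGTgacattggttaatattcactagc

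Searched on both strands, TGTTTGC was present in all 5 member promoters and in 5.04% of the 27025 RefSeq mouse promoters of this length. The RUNX core TGTGGT was in all 5 and in 16.9% of promoters. The C/EBP form TTGCNNAA was in 4 of the 5, not in Serpina1c, and in 10.8% of promoters. Counted from the gene start, this match began at -161 in Serpina1b, -149 in Serpina1d and -211 in Serpina1e. In Serpina1a it lay elsewhere, at base 25 past the start. The matches to these motifs did not overlap one another. The other FOXA form TGTTTAC and the TATA box TATAAA were in none of the 5, against 3.55% and 14.2% of promoters. The 5 promoters are close copies, so their matches are not independent of one another, and no enrichment is read from these shares. A match describes the letters only.

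Serpina1a, Serpina1b and Serpina1d were present in PSC and MSC and absent, or nearly so, from PP1 and PP2. Values are normalized counts, the reads of a gene divided by a size factor of the library. Serpina1b, the highest by group mean, was at 452, 231, 53.3 and 610 in PSC replicates 1 to 4 and at 183, 232, 302 and 474 in MSC. It had no read in any of the 8 PP1 and PP2 libraries. PSC and MSC overlapped, and PSC replicate 3 was the lowest of the 8 libraries with reads.

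Serpina1d followed at 321, 252, 42.2 and 468 in PSC and at 130, 153, 272 and 392 in MSC, again with no read in PP1 or PP2. Serpina1a was at 148, 101.6, 11.1 and 395 in PSC and at 64.4, 86.9, 83.04 and 194 in MSC. It had no read in PP1, and 4 reads in PP2 replicate 1 (4.40 normalized counts) were the only reads of any member in the 8 progenitor libraries. For both genes PSC replicate 3 was again lowest and PSC replicate 4 highest, and the groups PSC and MSC overlapped.

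The remaining copies were at or near 0 everywhere. Serpina1e was at 15.1 in PSC replicate 2 and 0 in the other PSC libraries, and at 3.43, 9.58, 5.14 and 7.35 in MSC. Serpina1c had no read in PSC and was at 0.858, 1.37, 1.71 and 0 in MSC. Both had no read in PP1 and PP2.

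**Figure D1:**
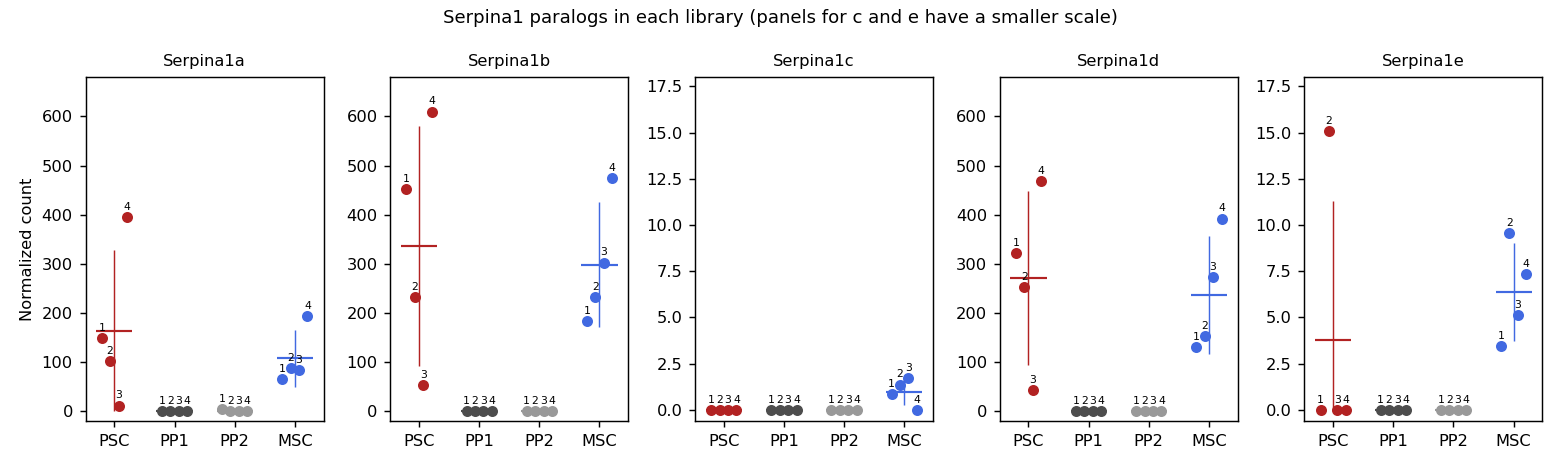
Normalized count of each Serpina1 paralog (vertical axis) in every library, by sorted group (horizontal axis). Points are libraries numbered by replicate, horizontal lines group means and vertical lines SD, cut at 0. The panels of Serpina1c and Serpina1e have a smaller scale. Serpina1a, b and d were seen in PSC and MSC, with PSC replicate 3 lowest, while PP1 and PP2 sat at 0 apart from 4.40 for Serpina1a in PP2 replicate 1.

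Summed over the 5 genes, PSC libraries held 922, 600, 107 and 1473 normalized counts, and MSC libraries 382, 483, 664 and 1067. The means were 775 ± 573 in PSC and 649 ± 302 in MSC (SD over the 4 libraries), a ratio of 1.19 that lay well within the spread of either group. The order of the group means rested on PSC replicate 4, since without it the PSC mean was 543. The highest library exceeded the lowest 13.8-fold in PSC and 2.80-fold in MSC. In all, 2797 reads of the 5 genes were counted in PSC, 3379 in MSC, 4 in PP2 and 0 in PP1.

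For each gene with no read in a group, a lower bound on its fold was set against 3 reads in each library of that group, which averaged 3.48 normalized counts in PP1 and 3.003 in PP2 and allows for counting error only. On that basis the mean of Serpina1b in PSC (337 ± 244, n = 4) was at least 96.8-fold higher than in PP1 and at least 112-fold higher than in PP2. Its mean in MSC (298 ± 127) was at least 85.6-fold and 99.2-fold higher. Serpina1d (271 ± 177 in PSC, 237 ± 121 in MSC) was at least 77.9-fold and 90.3-fold higher in PSC, and at least 68.1-fold and 78.9-fold higher in MSC. Serpina1a (164 ± 164 in PSC, 107 ± 58.8 in MSC) was at least 47.1-fold higher in PSC than in PP1 and at least 30.8-fold higher in MSC than in PP1. The first of these rested on PSC replicate 4, without which the Serpina1a mean in PSC was 87.0 and the bound 25.02-fold. Serpina1c and Serpina1e lay at or near the bound and no fold is given. In bulk libraries, fewer cells carrying a transcript cannot be told apart from less transcript per cell.

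For Serpina1a, Serpina1b and Serpina1d, the 3 members that passed the filter on low values (at least 10 in at least 4 libraries, 13797 genes), every PSC library was above every PP1 and every PP2 library. The same held for 15.5% of all tested genes against PP1 and for 15.7% against PP2. MSC libraries of these 3 members were likewise above all PP1 and PP2 libraries, as were 17.4% and 18.1% of tested genes. The members were chosen for their difference from PP1 and PP2, so nothing is read from these counts. Between PSC and MSC all 3 overlapped, whereas 38.7% of tested genes did not overlap in one direction or the other.

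Genes without a read in the progenitor groups were counted as a description. Of the 13797 tested genes, 146 (1.06%) had no read in all 8 PP1 and PP2 libraries. With a mean of at least 100 in both PSC and MSC there were 9425 genes, and Serpina1b and Serpina1d were the 2 among them without a read in PP1 and PP2. Allowing up to 4 reads over those 8 libraries added Serpina1a. At a minimum mean of 50, 7 of 10623 genes had no read, and besides Serpina1b and Serpina1d these were Bpifc, Cdh1 (E-cadherin of epithelia), Cdsn (corneodesmosin of the skin barrier), Gfra3 (a receptor for artemin) and Lipi (a lipase). The minimum levels and the 5 other genes were chosen after the values were seen. Serpina1b and Serpina1d were picked for their difference from PP1 and PP2, so nothing is read from these counts.

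The mixture of copies was steadier than their sum. Serpina1b made up 44.7 ± 5.65% of the sum in PSC and 46.4 ± 1.78% in MSC, Serpina1d 37.1 ± 4.62% and 35.9 ± 3.95%, and Serpina1a 17.6 ± 6.83% and 16.4 ± 2.65% (SD, n = 4). The mixture still changed between libraries. Serpina1a ran from 10.4% in PSC replicate 3 to 26.8% in PSC replicate 4. In PSC replicate 2 Serpina1d (42.0%) exceeded Serpina1b (38.5%). Serpina1e reached at most 2.51% and Serpina1c at most 0.283% of the sum in any library. Even in PSC replicate 3, whose sum was lowest, Serpina1b took 53 of 106 reads (50%, 95% Wilson interval 40.6 to 59.4%, counting error only). Across the 8 PSC and MSC libraries the log2 values of the 3 copies ran together, with a Pearson r of 0.976 for Serpina1a and Serpina1b, 0.960 for Serpina1a and Serpina1d and 0.979 for Serpina1b and Serpina1d. How reads that fit several copies were counted is not stated, and any effect of such reads on these correlations was not tested. The points come from the same libraries, and PSC replicate 3 was lowest for each of the 3 copies.

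**Figure D2:**
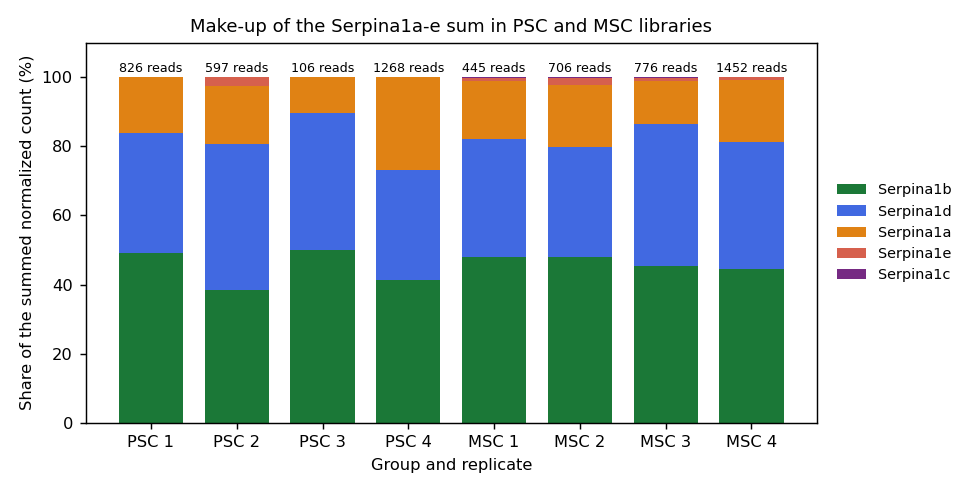
Share of the summed Serpina1a-e normalized count taken by each paralog (vertical axis, percent) in the 8 PSC and MSC libraries (horizontal axis). Numbers above the bars are the reads behind each sum. Serpina1b, d and a make up nearly all of every bar, also in PSC replicate 3 with 106 reads.

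How many reads each copy could have received depends on how much of its transcript is its own. Cut into words of 50 bases, 19.2% of the Serpina1a transcript and 20.7% of Serpina1c matched no other annotated transcript, against 52.9% of Serpina1b, 49.1% of Serpina1d and 62.1% of Serpina1e. With words of 100 bases these shares were 39.0%, 30.7%, 73.6%, 70.7% and 81.8%. Serpina1a shared most with Serpina1c, 69.3% of its 50-base words. The sources used here state neither the read length nor how reads fitting several genes were handled.

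The order of Serpina1a among the copies therefore depended on the length it was set against. Per kb of transcript, the mean normalized count in PSC was 241 for Serpina1b, 194 for Serpina1d and 121 for Serpina1a. Per 1000 unique 50-base words it was 653 for Serpina1a, 473 for Serpina1b and 411 for Serpina1d. Per 1000 unique 100-base words it was 333, 353 and 296 in the same order. Serpina1e stood far below the rest on every scale, at 4.87 per 1000 unique 50-base words, although it has the largest unique share. Serpina1c, with as many unique words as Serpina1a (272 and 251 of 50 bases), was at 0 in PSC and at 3.62 per 1000 such words in MSC. Serpina1c is also the only member whose exons overlap another gene, 429 bases shared with the antisense B430119L08Rik.

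**Figure D3:**
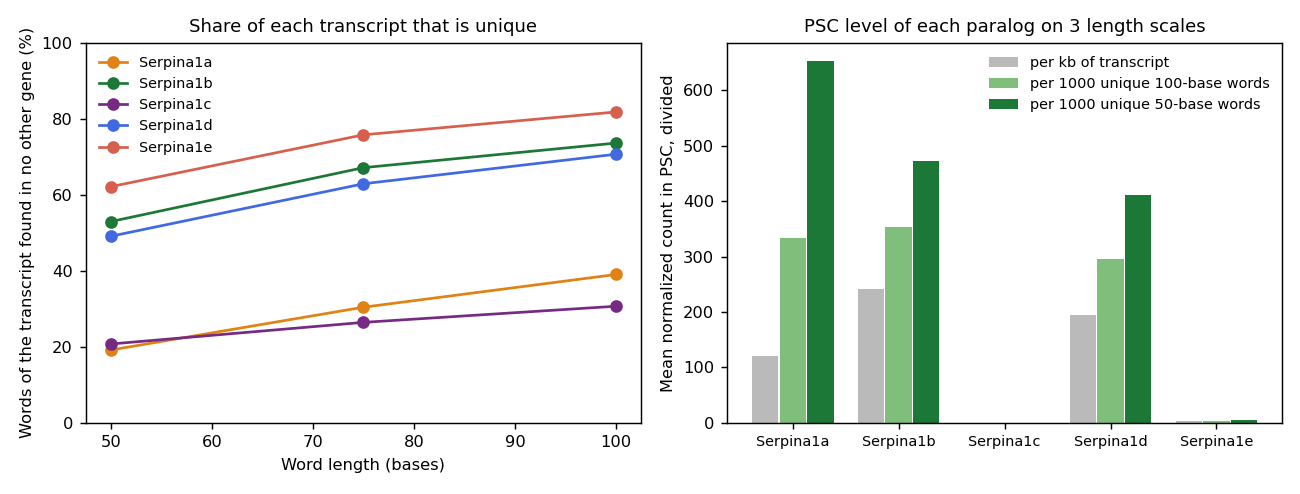
Left, percent of words of each Serpina1 transcript found in no other gene (vertical axis) against word length in bases (horizontal axis). Right, mean normalized count of each paralog in PSC divided by transcript length or by its number of unique words. Serpina1a has few unique words and moves from below Serpina1b and Serpina1d, at 121 per kb, to highest, at 653 per 1000 unique 50-base words, while Serpina1c and Serpina1e stay near 0.

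Among all serpins of the table, the 3 expressed copies ranked in the upper part in PSC. Per kb of the union of exons, Serpina1d (194) ranked 7, Serpina1b (139) ranked 9 and Serpina1a (89.5) ranked 11 in PSC of 60 serpins with a length, and in MSC they ranked 9, 10 and 12. The lower place of Serpina1b on this scale goes with the extra exons of its long transcript. Serpinh1, the collagen chaperone HSP47, was highest in all 4 groups (56390 per kb in PSC) and is named for that level.

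Other serpins separated the groups in other ways. Serping1, the inhibitor of the first complement component, was at 400 ± 105 in PSC and 406 ± 53.9 in MSC but at 5064 ± 1065 in PP1 and 4999 ± 1382 in PP2 (normalized counts, SD, n = 4), the opposite order to the Serpina1 sum. Its log2 difference between PSC and PP1 was -3.67 (SE 0.20, adjusted p = 1.18e-10, limma with Benjamini-Hochberg adjustment over all tested genes, as for all adjusted p below). Serpinf1, the antiangiogenic factor PEDF, was also lower in PSC than in PP1 (log2 difference -1.82, SE 0.20, adjusted p = 1.03e-06), at 13139 ± 5941 against 43533 ± 5037. Serpine2, which inhibits thrombin and other proteases, was highest in MSC at 21462 ± 3533, against 7804 ± 537 in PSC (log2 difference -1.45, SE 0.14, adjusted p = 6.79e-07). Serpina3n, a clade A relative that inhibits cathepsin G, was present in all groups, from 489 ± 385 in PP1 to 1338 ± 381 in MSC, and did not pass between PSC and PP1 (adjusted p = 0.141). Of 14 tested serpins from outside clade A, 3 were higher and 4 lower in PSC than in PP1, where 31.2% of all tested genes passed in either direction. Of 4 tested clade A serpins outside the cluster, none passed in that comparison.

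The proteases that alpha-1-antitrypsin is best known to inhibit were scarce. Elane, neutrophil elastase, was at 0, 63.4, 0 and 16.3 in PSC, at 0.858, 0, 21.4 and 0 in MSC, and had no read in PP1 or PP2. Ctsg, cathepsin G, reached at most 5.81 in any library. Prtn3, proteinase 3, ran from 0 to 97.6 and its groups overlapped. Summed over 13 proteases of neutrophils and mast cells, libraries held 20.1 to 154 in PSC, 7.89 to 120.5 in PP1, 0 to 70.6 in PP2 and 32.2 to 134 in MSC.

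Transcription factors that drive the genes in hepatocytes were split. Foxa3, a forkhead factor, was at 3386, 2049, 2225 and 2214 in PSC and at 1640, 848, 1011 and 803 in MSC. In PP1 it was at 228, 84.2, 193 and 199, and in PP2 at 218, 211, 219 and 235, so neither group of stem cells overlapped either progenitor group. It was higher in PSC than in PP1 by 3.87 on the log2 scale (SE 0.29, adjusted p = 4.99e-09), higher than in PP2 by 3.45 (SE 0.29, adjusted p = 2.05e-08), and higher than in MSC by 1.23 (SE 0.29, adjusted p = 0.00368).

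Foxa2, its close relative, was at 1143 ± 413 in PSC, 572 ± 94.8 in MSC, 182 ± 124 in PP1 and 199 ± 119 in PP2. Its log2 difference was 3.03 between PSC and PP1 (SE 0.57, adjusted p = 3.6e-04) and 2.64 between PSC and PP2 (SE 0.57, adjusted p = 0.00123). Between PSC and MSC it was 0.95 (SE 0.57) and did not pass (adjusted p = 0.243). Foxa2 and Foxa3 also belong to the list of later chondrocyte stages counted further below.

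Hnf4a, a nuclear receptor of hepatocytes, was not detected beyond a few reads, at 12.1 in PSC replicate 3, 3.42 in MSC replicate 3 and 0 elsewhere. Cebpa was higher in MSC (552 ± 101) than in PSC (164 ± 84.7), with a log2 difference of -1.91 (SE 0.48, adjusted p = 0.00609). It was also present in PP1 (294 ± 208) and PP2 (385 ± 127). Any bearing of these transcription factors on the Serpina1 values was not tested. Cebpb, which mediates the acute phase response, was at 704 ± 353 in PSC, 1483 ± 455 in MSC, 397 ± 130 in PP1 and 309 ± 104 in PP2. Its log2 difference of PP1 from MSC was -1.90 (SE 0.32, adjusted p = 2.98e-04), and the difference of PSC from PP1 did not pass (adjusted p = 0.0818). It was higher in PSC than in PP2 by 1.14 on the log2 scale (SE 0.32, adjusted p = 0.0102).

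Genes of the interleukin-6 type response, which raises alpha-1-antitrypsin in the liver, gave a mixed picture. Socs3, a feedback inhibitor induced by this pathway, was at 19206 ± 4877 in PSC and 17595 ± 2260 in MSC, against 6262 ± 1792 in PP1 and 7096 ± 1603 in PP2. It was higher in PSC than in PP1 by 1.64 on the log2 scale (SE 0.21, adjusted p = 5.1e-06). Stat3, the pathway's transcription factor, was at 1371 ± 226 in PSC and 1827 ± 520 in PP1 (adjusted p = 0.117). Of 15 tested genes of the list, 3 were higher and 5 lower in PSC than in PP1, and 4 higher and 5 lower in PSC than in PP2, where 32.8% of all genes passed.

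Hepatocyte plasma protein genes were mostly scarce in every group. Alb (albumin) was at 10.04, 6.03, 0 and 27.9 in PSC and between 2.74 and 6.01 in MSC. By Alb the 4 PSC libraries stood in the same order as by the Serpina1 sum. The MSC libraries did not, with Alb at 6.01, 2.74, 4.28 and 3.68 in replicates 1 to 4. Alb was also at 6.90 in PP1 replicate 3 and at 18.6 in PP2 replicate 2. What Alb has to do with the Serpina1 values was not tested. Apoa1 (apolipoprotein A-I) reached at most 17.9. Of 25 such genes in the table, 7 passed the filter, and 0 were higher in PSC than in PP1 while 2 were lower, a share near the 31.2% of all tested genes that passed. The list's summed level was 2522 to 2968 in PSC, 4042 to 5247 in PP1, 3822 to 5693 in PP2 and 4289 to 5014 in MSC, most of it from Rbp4 (2350 ± 204 in PSC), which other tissues also make.

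**Figure D4:**
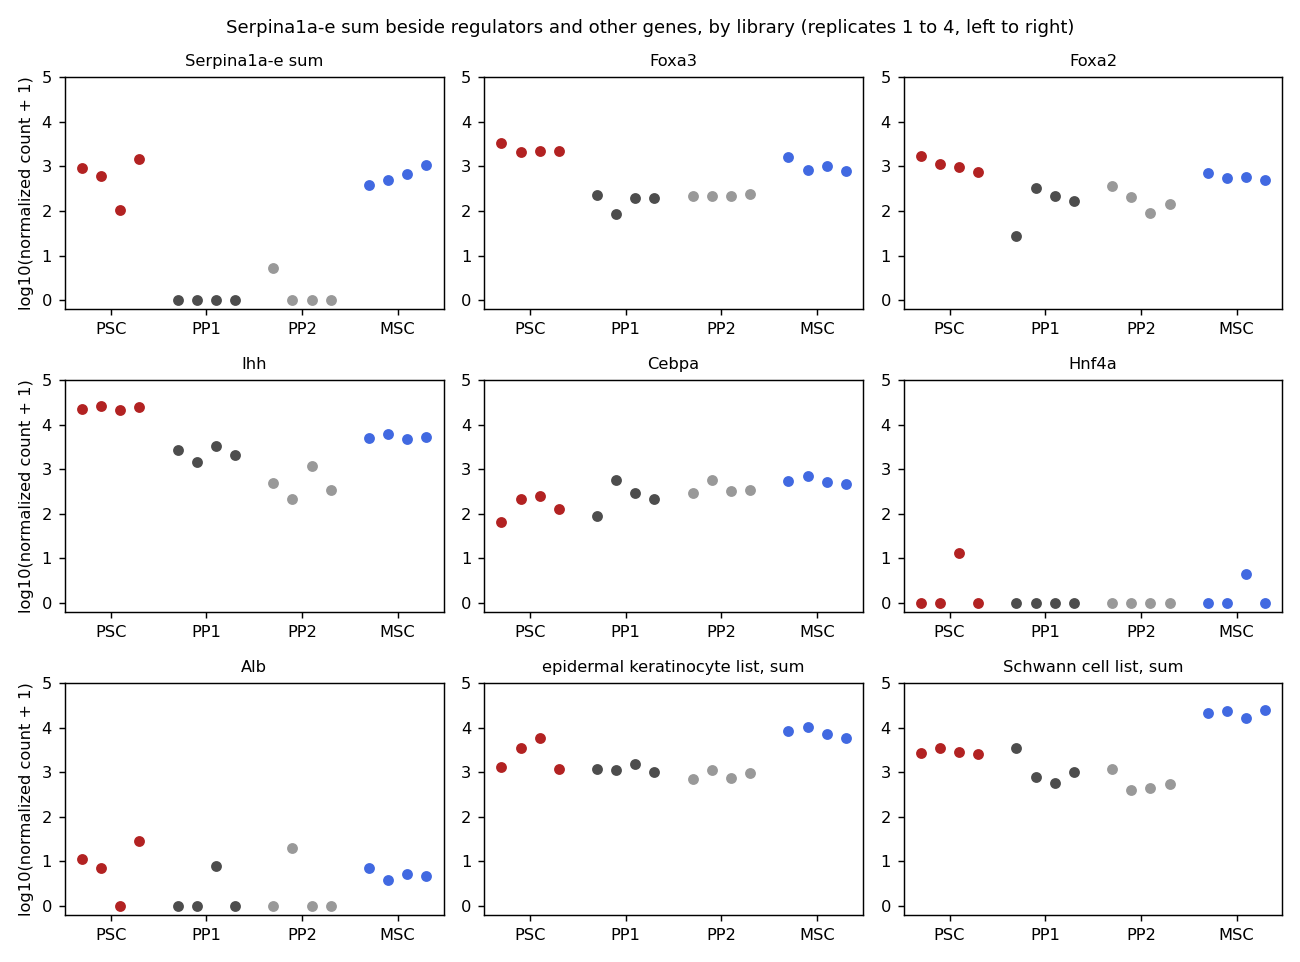
log10(normalized count + 1) of the Serpina1a-e sum, of regulators, of marker genes and of 2 summed marker lists (vertical axis) in each of the 16 libraries, replicates 1 to 4 from left to right within each group (horizontal axis). Foxa3 is at 803 or more in every PSC and MSC library and at 235 or less in PP1 and PP2. Hnf4a reaches at most 12.1 and Alb at most 27.9 normalized counts in any library. Within PSC, the keratinocyte list is lowest in replicate 4, at 1149, where the Serpina1 sum is highest.

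The machinery that folds and exports secreted proteins was measured as context for a secreted product. Of 25 tested genes of folding, export and quality control in the endoplasmic reticulum, 11 were higher and 0 lower in PSC than in PP1, where 31.2% of all tested genes passed, with a median log2 difference of 0.48 against 0.04 over all tested genes. Against PP2 the counts were 11 and 0 (32.8% of all tested genes passed), with a median of 0.42 against 0.08. Against MSC they were 12 and 2 (26.3% passed), with a median of 0.26 against -0.18. Without PSC replicate 2 a total of 7 passed against PP2, and 9 against MSC, as without MSC replicate 2. Lman1, a cargo receptor that carries alpha-1-antitrypsin from the endoplasmic reticulum, was at 7040 ± 694 in PSC and 5502 ± 461 in MSC, with 4831 ± 337 for PP1 and 5665 ± 551 for PP2. It was higher in PSC than in PP1 (log2 difference 0.54, SE 0.10, adjusted p = 2.72e-04). Mcfd2, its partner, was at 3465 ± 401 in PSC and 3141 ± 316 in PP1 and did not pass between them (adjusted p = 0.358). Surf4, another cargo receptor, was at 40935 ± 2606 in PSC and 27199 ± 1392 in PP1 (log2 difference 0.59, SE 0.09, adjusted p = 4.06e-05).

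MSC, where the Serpina1 sum overlapped that of PSC, was also set against PP1 for this machinery. Of the 25 genes, 2 were higher and 9 lower in PP1 than in MSC (21.4% of all tested genes passed), with a median log2 difference of -0.19 against -0.18 over all genes. Surf4 was at 23674 ± 2474 in MSC, below its PP1 level without passing (adjusted p = 0.111).

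Receptors that clear serpins from the surroundings also differed by group. Lrp1, which takes up complexes of alpha-1-antitrypsin with proteases, was lower in PSC (10421 ± 1523) than in PP1 (19089 ± 3197), PP2 (18902 ± 3280) and MSC (25054 ± 7066), with a log2 difference from PP1 of -0.87 (SE 0.18, adjusted p = 8.63e-04). Of 7 tested receptors, 3 were higher and 1 lower in PSC than in PP1, where 31.2% of all tested genes passed.

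The libraries' wider identity gives the setting of these values. Against PP1, PSC had 12 of 14 tested proliferating chondrocyte genes higher and 0 lower, and 11 of 15 genes of later chondrocyte stages higher and 0 lower, where 31.2% of all tested genes passed in either direction. Foxa2 and Foxa3 are among those 15 genes. Ihh, the hedgehog ligand of prehypertrophic chondrocytes, was at 23786 ± 2182 in PSC, 5288 ± 641 in MSC, 2399 ± 824 in PP1 and 553 ± 421 in PP2. Col10a1, the collagen of hypertrophic chondrocytes, was at 101445 ± 24047 in PSC and 40026 ± 8744 in MSC, against 4750 ± 5657 in PP1 and 5588 ± 7394 in PP2. The receptor gene Pth1r was 56508 ± 7732, 20955 ± 3972, 8672 ± 1074 and 7713 ± 1003 in the same order. PP1 and PP2 instead carried fibroblast genes, all 12 of which were lower in PSC than in PP1 against the same background, for instance Cd34 at 377 ± 156 in PSC and 10885 ± 2827 in PP1. Against MSC, PSC had 4 of the 14 proliferating genes higher and 3 lower, and 6 of the 15 later ones higher and 2 lower. Over all tested genes 26.3% passed in that comparison. In PP1, 14 of the 14 and 14 of the 15 were lower than in MSC (21.4% of all tested genes passed). Ihh and Pth1r did not overlap between PSC and MSC, as was so for 38.7% of tested genes, whereas the Serpina1 sum did overlap.

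Markers of skin and nerve sheath cells also moved with the groups, and their part in the Serpina1 values was not tested. A list of 26 epidermal keratinocyte genes, drawn up after Cdh1 and Cdsn had been seen, summed to 5754 to 10116 in MSC, 711 to 1110 in PP2 and 1010 to 1549 in PP1. In PSC it summed to 1336, 3567, 5885 and 1149 in replicates 1 to 4. In PP2 13 of the 26 had no read in any library, in PP1 8, in PSC 2 and in MSC 1. By the keratinocyte sum every PSC and MSC library was above every PP2 library, as by the Serpina1 sum. PSC replicate 4, with the keratinocyte sum lowest in PSC and within the range of PP1, had the highest Serpina1 sum of all 16 libraries. PSC replicate 3, with the keratinocyte sum highest in PSC, had the lowest Serpina1 sum of PSC and MSC. A list of 10 Schwann cell genes was drawn up at the same time. It summed to 16189 to 24692 in MSC, 2531 to 3429 in PSC, 583 to 3476 in PP1 and 401 to 1191 in PP2.

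Neighbouring genes were measured along with the cluster. Within 1 Mb on either side, 42 other genes were in the table, 21 passed the filter and 8 had no read in any library. Serpina1f, next to Serpina1b at 32.6 kb, and Serpina11, 21.3 kb beyond Serpina1e, had no read in the 16 libraries, and Serpina6, which encodes the corticosteroid-binding globulin, had 2. Of the 21 tested, 1 was higher and 5 were lower in PSC than in PP1, 0 and 3 in PSC than in PP2, and 0 and 3 in PSC than in MSC. Over all tested genes 31.2%, 32.8% and 26.3% passed in these comparisons, so the first count was near the background and the others were below it.

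The neighbour higher in PSC than in PP1 was Ppp4r4, a regulatory subunit of a protein phosphatase 114 kb from the cluster. It was at 22.3, 35.2, 38.2 and 0 in PSC, 24.0, 28.0, 25.7 and 25.7 in MSC, 0 in all PP1 libraries, and 39.6 in PP2 replicate 1 but 0 in the rest of PP2. Its log2 difference between PSC and PP1 was 3.75 (SE 1.29, adjusted p = 0.0322), and in 7 of 24 other settings it did not pass (adjusted p from 0.00377 to 0.0963). PP2 replicate 1 is the library that held the 4 Serpina1a reads. Gsc, a homeobox gene 512 kb away, was lower in PSC (20.8 ± 19.0) than in PP1 (238 ± 44.7), by a log2 difference of -4.14 (SE 0.76, adjusted p = 3.01e-04).

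**Figure D5:**
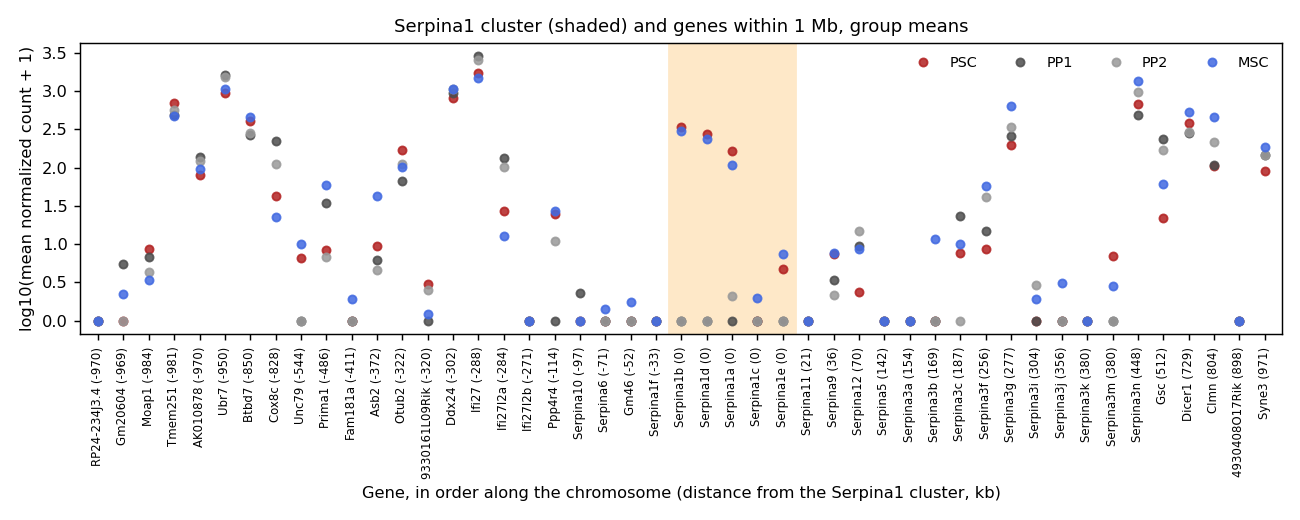
log10(mean normalized count + 1) in each group (vertical axis) for the Serpina1 genes (shaded) and the other genes of the table within 1 Mb, in order along the chromosome, with the distance from the cluster in kb in brackets (horizontal axis). Serpina1b, d and a stand out in PSC and MSC from genes next to the cluster, such as Serpina1f and Serpina11, which had no read. Some genes farther away were higher, such as Serpina3n, 448 kb away, at a mean of 685 in PSC and 1338 in MSC.

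By pattern over the 16 libraries, the genes most like the Serpina1 sum were Lipi (Pearson r of log2 values 0.98), Cpe (0.98), A330041J22Rik, Gfra3, Srebf2, 2310042D19Rik, Junb, Alpl, Chst11 and Ranbp3l, the last at 0.96, out of 13724 candidates with a median r of 0.13. All points share the split of PSC and MSC from PP1 and PP2, and 113 genes exceeded 0.9. Lipi was at 123, 141, 23.1 and 72.0 in PSC and at 111, 118, 78.8 and 80.9 in MSC, with no read in PP1 or PP2, so that PSC replicate 3 was lowest there too. Cpe, carboxypeptidase E of the secretory pathway, was at 47060 ± 7551 in PSC and 47531 ± 3144 in MSC against 13249 ± 1088 in PP1 and 14346 ± 645 in PP2. Gfra3 was at 157 ± 28.2 in PSC and 80.7 ± 23.1 in MSC with no read in PP1 and PP2. The names depended on the measure, since ranking by Spearman's rho kept 1 of the 10 and ranking within the 8 PSC and MSC libraries kept 0.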

How the data were processed

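RNA of sorted cells (RNeasy Plus Micro) was sequenced from TruSeq libraries on a HiSeq4000, per the labels. Tools in the submitters' processing notes are TopHat2 2.0.11 and HTSeq 0.6.1, with DESeq2 1.6.3, bcl2fastq 2.17 and cutadapt, and the build is mm10. Of annotation, filters, strand, read length and multiply mapping reads, nothing is stated in these sources. The authors deposited signal values for 22559 genes, 1 column for each library. Within a library, values came out as whole multiples of a single step (tolerance 1e-06), so they are read counts divided by a size factor, called normalized counts. The spread between libraries, more than counting, limits the precision for the genes with many reads.

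log2(normalized count + 1) of the 13797 genes with at least 10 in at least 4 libraries was fitted with limma 3.58.1 (R 4.3.3, trend, all 16 libraries, group only), Benjamini-Hochberg adjusted within each comparison, threshold 0.05. The procedure was tested on simulated data. Alternatives were pseudocounts of 0.5 and 8, no filter, a minimum of 50, a replicate block, edgeR 4.0.16 and DESeq2 1.42.0 on recovered reads, TMM rescaling and leaving out each library. Added after seeing the data were leaving out PP2 replicates 1 and 3, and likeness over PSC and MSC only.

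Gene models and transcripts were GENCODE M21, which held 21829 of the identifiers, and alignments used MAFFT 7.526. The members and the gene lists were chosen with earlier results of these data known. Named genes were the 5 members, the 10 genes most like them, genes of the locus, up to 4 genes per list with the smallest adjusted p in PSC against MSC or PP1, and genes with a known bearing on alpha-1-antitrypsin. Bpifc, Cdsn, Cdh1, Serpinh1 and the keratinocyte and Schwann cell lists were chosen after their values were seen. Some results are not reported here.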

Additional observations from a re-analysis of the deposited data

Results flagged for a closer look

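In each group of 4 libraries, a library was picked out when its gap to the next value was above Dixon's 95% critical share of the group's range. Chance picks about 1 in 20 groups, and 16 of 120 groups with any spread (13.3%) were picked. Where 3 libraries are at 0 and the fourth is not, the criterion is always met.

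Among the members these were Serpina1a in PP2 replicate 1 (4.40, the others 0), which also gave the Serpina1a-e sum of 4.40 there, and Serpina1e in PSC replicate 2 (15.1, the others 0). PP2 replicate 1 also stood apart for Ppp4r4 (39.6, the others 0).

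PSC replicate 1 stood apart for Foxa3 (3386, the others 2049 to 2225) and Socs3 (26469, the others 15972 to 17292). MSC replicate 3 stood apart for Hnf4a (3.42) and Ctsg (5.14), each with the others at 0, for Elane (21.4, the others 0 to 0.858), for Stat3 (2305, the others 2145 to 2166) and for Lman1 (6190, the others 5215 to 5311). The rest were Hnf4a in PSC replicate 3 (12.1), Alb in PP1 replicate 3 (6.90) and PP2 replicate 2 (18.6), and Prtn3 in PP2 replicate 2 (61.7), all with the others at 0, and Cebpa in PP2 replicate 2 (574, the others 299 to 335).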

How the results depend on the processing

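Leaving out each library in turn, the mean Serpina1a-e sum ran from 543 to 998 in PSC and from 510 to 738 in MSC. Without PSC replicate 3 it was 998. Without PSC replicate 4 the Serpina1a mean in PSC fell from 164 to 87.0. The count of genes called between PP1 and PP2, 115, was 227 with a replicate block and 412 by DESeq2. It ran from 93 to 180 when libraries were left out, 180 being without PP2 replicate 4. The cause was not tested. The other counts of called genes moved by less than 1.5 times under each alternative run. They ran, with libraries left out, from 3558 to 4693 (PSC and PP1), 3786 to 4639 (PSC and PP2), 2484 to 3971 (PSC and MSC), 2107 to 3320 (PP1 and MSC) and 2326 to 3423 (PP2 and MSC). Whether replicate numbers pair libraries is not stated. Correlations of same-numbered deviations ran from -0.018 to 0.149, above 0 in 23 of 24 pairs and above 0.1 in 2, and all 16 libraries correlated best with their own number, a hint of pairing from the data and not the design. The block raised the count of called genes in all 6 comparisons. For the named genes tested, 6845 of 6987 values under alternatives kept direction and side of the threshold, 96 lost the call, 46 gained it and 0 reversed. Among the calls lost was Ppp4r4 between PSC and PP1. For the Serpina1 genes, reads that fit several copies limit what the counts can tell about Serpina1a and Serpina1c.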
